A study of Homo sapiens with 12 samples.

Results

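Huh7, a human hepatocellular carcinoma line, was kept for 48 h in choline-free medium with a serum replacement and either no added choline (0 µM) or 15 µM choline chloride, with wild-type genotype at both doses. Chromatin immunoprecipitation sequencing (ChIP-seq) gave 1 library for H3K27ac and 1 for H3K4me1 at each dose, 4 in all, and each was deposited as a list of peak summits. A summit is the position of highest signal within a called peak. The protein-coding genes described here were selected on those lists: each had a 0 µM H3K27ac summit within 1 kb of an annotated gene end and no 15 µM H3K27ac summit within 2 kb of either end. They are called 0 µM-only genes below. There were 2482 of them among 19974 protein-coding genes on chromosomes 1 to 22 and X, which is 12.4%. They made up 43.9% of the 5648 genes with an end summit at 0 µM (95% interval 42.6 to 45.3%). The other 3166 of those genes also had a 15 µM summit within 2 kb and are called genes marked at both doses. In the reverse direction, 340 genes had an end summit only at 15 µM, 13035 had none within 2 kb at either dose, and 951 fell between these definitions. Because the rule itself chose the genes, the loss of H3K27ac at 15 µM is a description, and with 1 library per mark and dose no test between doses was possible. Intervals are exact Clopper-Pearson 95% intervals, cover counting error only and treat genes as separate, although some share a summit.

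H3K27ac, acetylation of a lysine in the tail of histone H3, is found at active promoters and enhancers. H3K4me1, monomethylation of another lysine of that tail, is found at enhancers and on the flanks of active promoters, and is usually depleted at the transcription start itself. Choline is a nutrient that liver cells build into phosphatidylcholine and, through betaine, use as a source of methyl groups for the methionine cycle. Acetylation of promoters is commonly found at widely expressed genes as well as at genes of the cell type.

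On these 23 chromosomes the H3K27ac lists held 37946 summits at 0 µM and 29305 at 15 µM, and the H3K4me1 lists 343156 and 349202. The 15 µM H3K27ac list was thus the shorter one, and read depth is unknown. With the 0 µM list limited to its highest-scoring 29305 summits, 2032 genes met the rule. The label of the cells was checked on marker genes: 26 of 62 hepatocyte genes had an H3K27ac end summit at 0 µM, among them ALB and AFP, against 1 of 20 blood cell markers, 1 of 20 fibroblast, stellate and endothelial markers and 1 of 20 neuron and muscle markers. Over all protein-coding genes 5648 of 19974 had one. Of the 62 hepatocyte genes, 25 had none within 2 kb at either dose.

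The bases just before the start are shown for 8 of the 0 µM-only genes, to let the promoters be seen on which the H3K27ac summit was listed at 0 µM and at 15 µM was not. They came from a RefSeq promoter table of GRCh38.p14 and run 5′ to 3′ along the gene, 250 bases each, ending at the base before the start. Capitals mark the GC box (GGGCGG), the ETS site (CCGGAAGT), the cyclic AMP response element (TGACGTCA), the TATA box (TATAAA) and the CCAAT box, named for its letters, read on either strand.
CTR9: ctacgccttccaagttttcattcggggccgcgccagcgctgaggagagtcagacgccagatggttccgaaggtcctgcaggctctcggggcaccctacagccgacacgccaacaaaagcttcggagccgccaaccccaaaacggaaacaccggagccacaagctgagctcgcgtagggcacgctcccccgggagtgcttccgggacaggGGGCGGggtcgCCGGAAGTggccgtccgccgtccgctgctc
ALG2: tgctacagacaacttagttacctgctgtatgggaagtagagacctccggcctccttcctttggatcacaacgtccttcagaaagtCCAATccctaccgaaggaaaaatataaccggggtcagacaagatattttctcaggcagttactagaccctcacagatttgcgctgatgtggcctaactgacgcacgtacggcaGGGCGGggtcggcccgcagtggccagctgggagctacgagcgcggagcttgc
ZNF789: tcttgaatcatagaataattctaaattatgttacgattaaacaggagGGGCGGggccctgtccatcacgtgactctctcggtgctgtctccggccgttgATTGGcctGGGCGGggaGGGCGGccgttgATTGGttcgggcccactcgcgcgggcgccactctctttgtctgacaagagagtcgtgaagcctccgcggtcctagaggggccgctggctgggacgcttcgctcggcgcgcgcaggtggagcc
PAN2: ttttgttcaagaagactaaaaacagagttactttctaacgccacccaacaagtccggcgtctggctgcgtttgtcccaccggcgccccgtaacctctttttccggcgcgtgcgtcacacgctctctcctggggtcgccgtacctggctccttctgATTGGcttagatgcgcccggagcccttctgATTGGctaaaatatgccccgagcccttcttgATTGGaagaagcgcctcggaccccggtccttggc
KDM2A: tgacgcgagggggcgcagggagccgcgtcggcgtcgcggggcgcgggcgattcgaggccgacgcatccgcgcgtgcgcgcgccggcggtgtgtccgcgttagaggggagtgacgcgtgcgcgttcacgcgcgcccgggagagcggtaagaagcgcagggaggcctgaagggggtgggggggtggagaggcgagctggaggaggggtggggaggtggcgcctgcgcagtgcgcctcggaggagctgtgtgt
RPS14: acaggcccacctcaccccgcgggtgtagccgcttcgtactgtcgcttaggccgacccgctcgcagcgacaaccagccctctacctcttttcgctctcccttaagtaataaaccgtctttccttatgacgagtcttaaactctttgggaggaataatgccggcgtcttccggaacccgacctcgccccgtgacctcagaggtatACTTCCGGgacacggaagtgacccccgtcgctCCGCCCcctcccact
YARS2: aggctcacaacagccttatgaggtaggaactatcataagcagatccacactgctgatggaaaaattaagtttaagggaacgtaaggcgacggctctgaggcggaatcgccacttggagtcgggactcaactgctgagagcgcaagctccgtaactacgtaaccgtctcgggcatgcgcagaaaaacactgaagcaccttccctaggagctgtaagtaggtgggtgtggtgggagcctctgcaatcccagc
RARS1: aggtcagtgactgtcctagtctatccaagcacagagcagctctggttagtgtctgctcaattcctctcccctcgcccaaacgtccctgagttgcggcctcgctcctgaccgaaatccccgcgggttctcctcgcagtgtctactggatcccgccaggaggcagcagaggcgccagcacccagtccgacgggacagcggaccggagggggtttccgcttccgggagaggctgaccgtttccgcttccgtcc
The window of CTR9 is chr11:10750996-10751245 on the plus strand (GRCh38), with 66.8% GC, 26 CpG, 1 GC box and 1 ETS site, and the 0 µM H3K27ac summit lay 187 bp before the start, inside it. That of ALG2 is chr9:99221943-99222192 on the minus strand, with 54.4% GC, 1 GC box and 1 CCAAT box, and its summit lay 196 bp before the start. That of ZNF789 is chr7:99472640-99472889 on the plus strand, with 61.6% GC, 3 GC boxes and 2 CCAAT boxes, and its summit lay 384 bp before the start. The window of PAN2 is chr12:56334001-56334250 on the minus strand and holds 3 CCAAT boxes and no GC box, with the summit 144 bp inside the gene. That of KDM2A is chr11:67119013-67119262 on the plus strand, has the highest GC content of the 8, 75.2%, with 40 CpG, and holds none of the 5 motifs. RPS14, at chr5:150449740-150449989 on the minus strand, has 1 GC box and 1 ETS site and its summit 197 bp before the start. YARS2, at chr12:32755898-32756147 on the minus strand, and RARS1, at chr5:168486221-168486470 on the plus strand, hold none of the 5 motifs, with 52.8% and 63.2% GC and summits 199 and 138 bp inside the gene. The 8 promoters share no one motif, and TATAAA and TGACGTCA are in none of these windows. A match is a description of the letters and not a measured site.

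The score of a summit is the authors' own value, a p or q on the −log10 scale, so a higher score is a stronger call, and it ranks summits within a list. The highest-scoring end summit of each 0 µM-only gene had a median score of 11.3 at 0 µM (quartiles 8.57 and 15.4, lowest 5.09, highest 70.1). For genes marked at both doses the median was 18.0 (quartiles 12.1 and 26.6). In the 0 µM list these medians stood at percentiles 52.7 and 79.1, so the 0 µM-only ends were typical summits of that list and the ends marked at both doses were among its higher ones. The lists hold tied scores: the 2482 genes had 608 different values.

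The marked genes were ranked by score and cut into 10 classes of about equal size. The share that was 0 µM-only went down from the lowest class to the highest. It was 68.8% in class 1 (389 of 565, 64.9 to 72.6%), 52.0% in class 5 and 7.26% in class 10 (41 of 565, 5.26 to 9.72%). The other 176 genes of class 1 were marked at both doses. Within a range of scores, the share also varied with the number of summits. Below the median score of 14.4, 73.0% of genes with 1 H3K27ac summit within 2 kb at 0 µM were 0 µM-only (1234 of 1691), against 49.2% with 2 summits and 28.4% with 3 or more. Above that score the shares were 37.9%, 22.5% and 12.3%. Among 0 µM-only genes 68.1% had 1 summit within 2 kb and 6.77% had 3 or more, while among genes marked at both doses these were 38.1% and 24.5%.

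**Figure D1:**
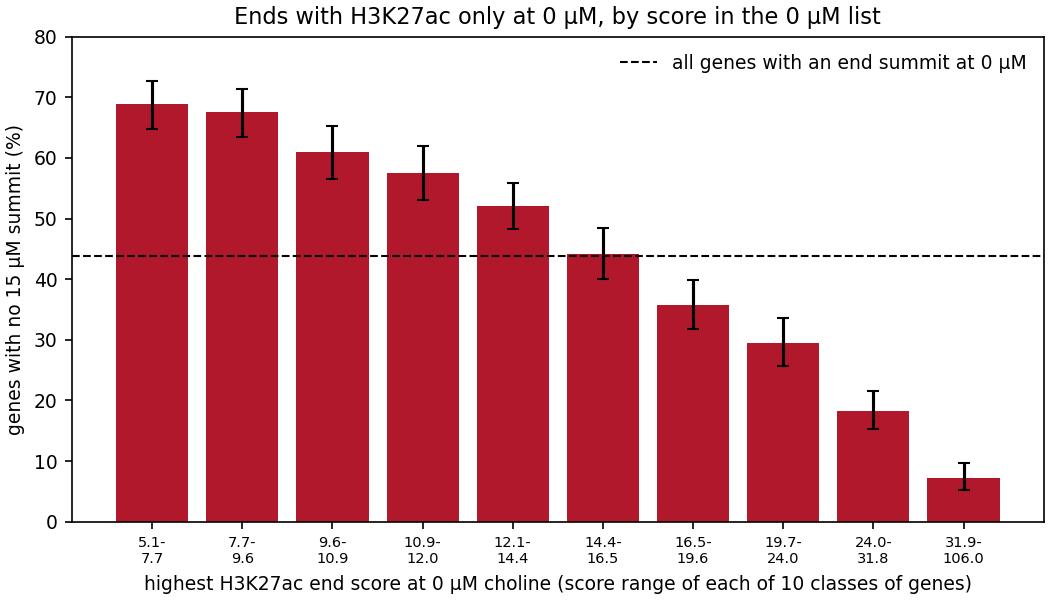
Share of genes with a 0 µM H3K27ac end summit that had no 15 µM summit within 2 kb of either end (y axis, percent), in 10 classes of the highest end score at 0 µM (x axis, with the score range of each class). Bars are shares, error bars exact 95% intervals for counting error, and the dashed line is the share over all 5648 genes; the bars go down from 68.8% to 7.26%.

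The 12 highest-scoring 0 µM-only ends, taken as 1 gene per summit, included regulators of transcription elongation, histone and RNA metabolism and the cytoskeleton. TTC9C, which encodes a tetratricopeptide repeat protein, had the highest score, 70.1, with 3 H3K27ac summits within 2 kb at 0 µM and none at 15 µM. Its nearest 15 µM summit lay 2.27 kb from a gene end, just past the limit of the rule. It shared the summit with the neighbouring gene HNRNPUL2, an RNA-binding protein gene that counted as marked at both doses because a 15 µM summit lay 1.68 kb from its own end. NELFA, a subunit of the negative elongation factor that holds RNA polymerase II near the start, had a summit of score 55.8 lying 151 bp before its start. The same summit lay 119 bp from the finish of LOC124900839. The nearest 15 µM H3K27ac summit was 101 kb from an end of NELFA. CTR9, a subunit of the PAF1 elongation complex, had 1 summit of score 48.0, and the nearest 15 µM summit lay 77.3 kb away.

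DUSP1, an immediate early phosphatase that inactivates MAP kinases, had 2 summits within 2 kb at 0 µM with a best score of 52.8. Its nearest 15 µM summit lay 2.59 kb from a gene end, and the 10 kb around its best summit held 5 H3K27ac summits of the 0 µM library and 6 of the 15 µM library. The region around DUSP1 therefore kept H3K27ac summits at 15 µM while the gene ends had none. TUBA1B, an alpha tubulin gene, had 2 summits with a best score of 52.1 and no 15 µM summit nearer than 67.2 kb. KDM2A, an H3K36 demethylase that binds unmethylated CpG, scored 40.1 and had 5 summits within 10 kb at each dose, the nearest at 15 µM being 2.11 kb from an end.

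The other high-scoring ends ranged from those next to a 15 µM summit to those alone in a wide region. ITFG2, a subunit of the KICSTOR complex that restrains mTORC1, scored 49.2 and its nearest 15 µM summit was 1043 kb away. For ALG2, a mannosyltransferase of N-glycan assembly that shared its summit with SEC61B, the score was 47.2 and the distance 603 kb. ZNF140, a zinc finger gene near the end of chromosome 12, scored 42.3 at 1218 kb from the nearest 15 µM summit. PAN2, the catalytic subunit of a poly(A) deadenylase, scored 43.5 and shared its summit with CNPY2, 16.2 kb from the nearest 15 µM summit. ZNF789 scored 43.9 and TPGS1, a subunit of the tubulin polyglutamylase complex, 39.9, with 15 µM summits 6.58 kb and 2.76 kb away. Over all 12 ends the surrounding 10 kb held 29 summits in the 0 µM and 15 in the 15 µM list for H3K27ac, and 50 and 66 for H3K4me1.

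**Figure D2:**
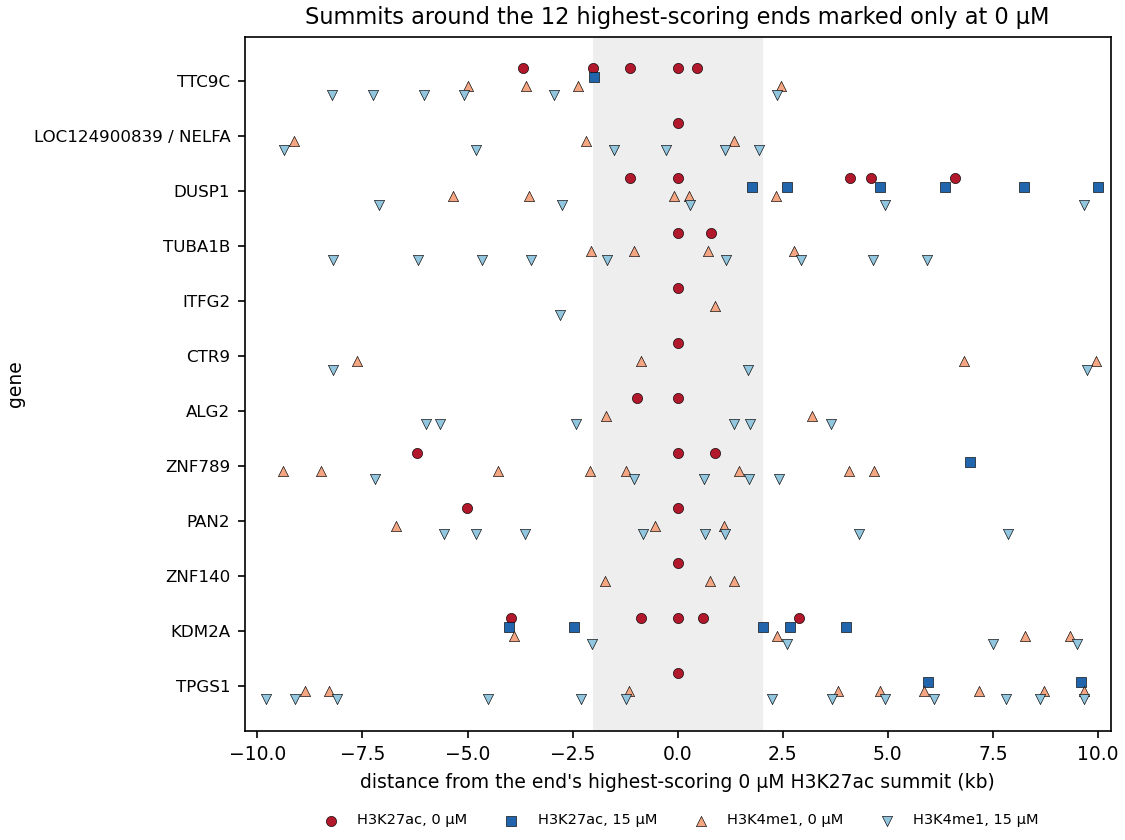
Summits of the 4 lists within 10 kb of the highest-scoring 0 µM H3K27ac summit of the 12 highest-scoring 0 µM-only ends (x axis, distance in kb along the chromosome; y axis, 1 gene per line). Each symbol is 1 summit and the grey band spans 2 kb on each side; H3K27ac at 15 µM (squares) is listed near TTC9C, DUSP1, ZNF789, KDM2A and TPGS1, and where a square enters the band it lies within 2 kb of the summit but over 2 kb from the gene's ends.

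The 0 µM summits lay at gene starts rather than finishes. Strand was known for 2065 of the 2482 genes, those matched in the promoter table. Of these 90.8% had the summit at the start only, 5.96% at the finish only and 3.24% at both ends. Genes marked at both doses had summits at the start only in 84.8% of cases and at both ends in 9.11%. The nearest 0 µM summit was a median of 268.5 bp from the end in 0 µM-only genes and 270.5 bp in genes marked at both doses. Distances from the start, given next, use the start in the promoter table, which was not always an end of the gene. Within 500 bp of that start there was a 0 µM H3K27ac summit in 72.1% of 0 µM-only genes and 70.0% of genes marked at both doses. Distance to the start was therefore similar in both classes. Of the nearest 0 µM H3K27ac summits within 2 kb of the start, 56.3% lay inside the gene in 0 µM-only genes (54.1 to 58.6%) and 52.1% in genes marked at both doses (50.2 to 54.1%), so the 2 intervals met at their ends. Of the 0 µM-only genes 22.1% started head to head with another protein-coding gene, against 25.4% of genes marked at both doses and 13.7% of all 15812 genes with a promoter entry. An end summit was shared with another gene by 32.6% of 0 µM-only genes, and the 2482 genes rested on 2089 separate groups of summits, of which 51 also touched a gene marked at both doses.

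**Figure D3:**
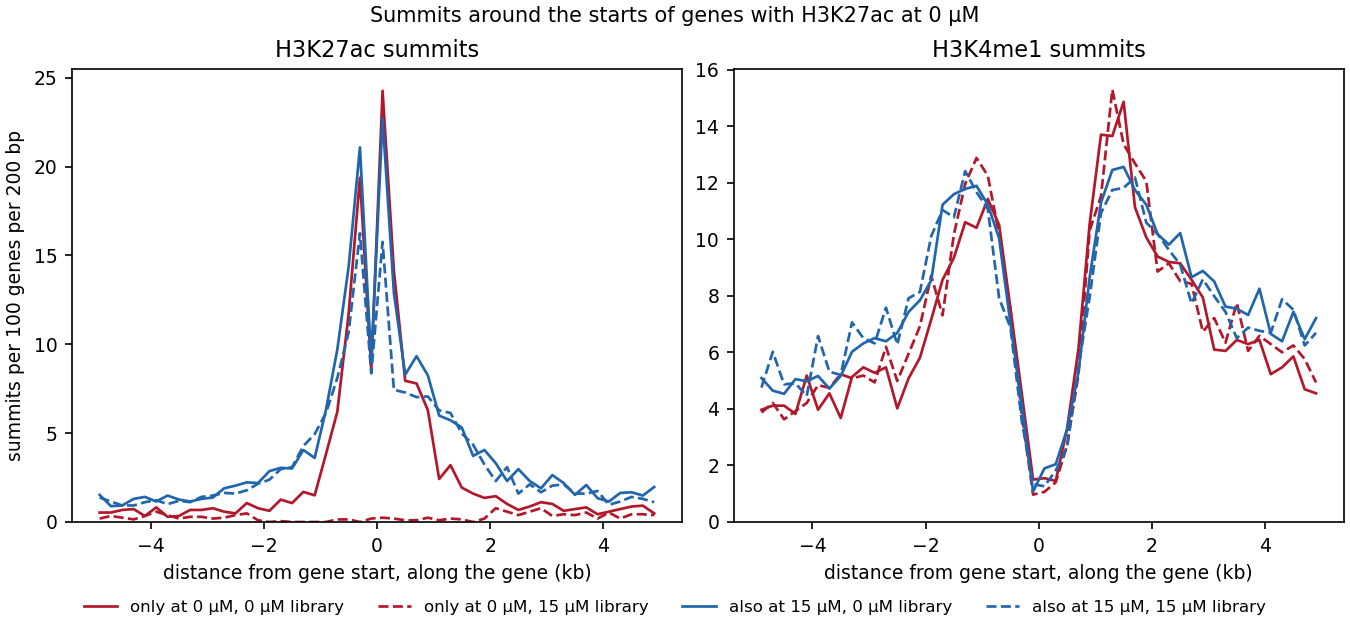
Summits per 100 genes in bins of 200 bp (y axes) by distance from the gene start, with positive values inside the gene (x axes, kb), for H3K27ac (left) and H3K4me1 (right) in genes with a promoter entry. Red lines are 0 µM-only genes, blue lines genes marked at both doses, solid lines the 0 µM and dashed lines the 15 µM libraries; the dashed red H3K27ac line near zero is set by the rule, while H3K4me1 dips at the start and peaks on both sides in both classes and at both doses.

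The distance from these genes to 15 µM H3K27ac summits varied widely. The median distance from an end to the nearest 15 µM summit was 35.3 kb (quartiles 11.6 and 103.9 kb, highest 3005 kb). None lay within 10 kb in 78.0% of the 0 µM-only genes, nor within 50 kb in 42.2% (1047). Over all genes the median distance was 46.9 kb and 48.8% had none within 50 kb, and for genes with no H3K27ac at either dose these were 93.1 kb and 65.7%. The 0 µM-only genes thus lay nearer to 15 µM summits than genes with no H3K27ac at their ends. A 15 µM H3K27ac summit lay inside the gene itself in 20.95% (520), against 9.44% of genes with no H3K27ac at either dose and 24.2% of all genes. Within 50 kb of the ends the 0 µM-only genes had on average 4.57 H3K27ac summits at 0 µM and 2.13 at 15 µM (medians 3 and 1). The averages were 7.37 and 6.16 for genes marked at both doses. These windows include the ends that the rule used. The genes themselves were of similar length, with a median of 28.0 kb against 31.3 kb for genes marked at both doses and 24.2 kb for all.

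H3K4me1 was not used by the rule, and the share of these genes with an H3K4me1 end summit was nearly the same at both doses. Of the 2482 genes 64.7% had an H3K4me1 summit within 1 kb of an end at 0 µM (1605, 62.7 to 66.5%) and 65.1% at 15 µM (1616, 63.2 to 67.0%). Genes marked at both doses had 63.3% and 62.3%, and genes with no H3K27ac at either dose 44.7% and 46.7%. The 0 µM-only ends thus held H3K4me1 as often as ends that had H3K27ac at both doses, within 3 percentage points at each dose. Where present, their best H3K4me1 end summit stood somewhat lower in its list. Its median percentile was 65.9 at 0 µM and 62.9 at 15 µM, against 69.6 and 68.9 in genes marked at both doses. Both doses had a summit within 1 kb in 47.7% of the 0 µM-only genes, and neither had in 17.9% (444). The rest had one at 1 dose only, so the near-equal shares do not rest on the same genes throughout.

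Few genes changed their H3K4me1 listing under the rule used for H3K27ac. Of the 1605 with a summit at 0 µM, 51 (3.18%) had none at 15 µM within 2 kb, where the share over all genes with H3K4me1 at 0 µM was 8.92%. Of the 1616 with one at 15 µM, 68 (4.21%) had none at 0 µM, against 10.9% over all. In genes marked at both doses these shares were 3.30% and 3.35%. Both classes with H3K27ac at 0 µM were therefore below the share over all genes, in which genes without H3K27ac had 13.2% and 16.1%. The H3K4me1 lists are many times longer than those of H3K27ac and start from lower scores, so the shares of the 2 marks are not on 1 scale.

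Around the starts, the counts of H3K4me1 were also close. Within 2 kb of the ends the mean number of summits was 2.33 at 0 µM and 2.42 at 15 µM in 0 µM-only genes, and 2.51 and 2.46 in genes marked at both doses. Within 500 bp of the start 13.8% of 0 µM-only genes had an H3K4me1 summit at 0 µM (12.3 to 15.4%) and 11.1% at 15 µM (9.81 to 12.6%), beside 12.9% and 12.3% in genes marked at both doses. Of the nearest H3K4me1 summits within 2 kb of the start, 47.3% lay inside the gene at 0 µM (45.0 to 49.6%) and 42.3% at 15 µM (40.1 to 44.6%) in 0 µM-only genes. In genes marked at both doses these were 42.2% and 41.3%. At 0 µM, the side of the start with the nearest H3K4me1 thus differed between the classes by more than the counting error of each share, and at 15 µM it was within it.

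**Figure D4:**
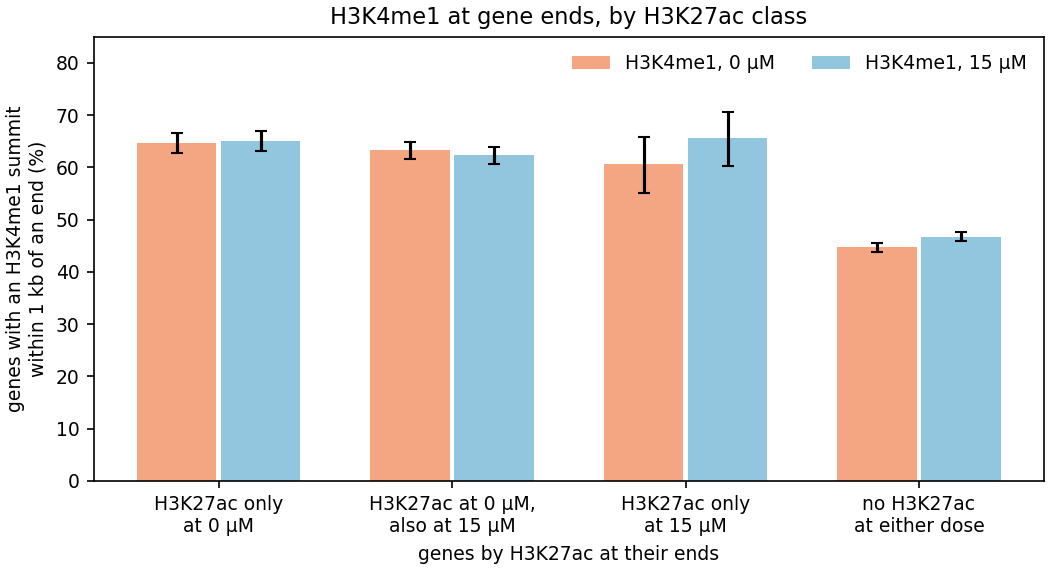
Share of genes with an H3K4me1 summit within 1 kb of an end (y axis, percent) at 0 µM and 15 µM choline, in genes grouped by H3K27ac at their ends (x axis). Bars are shares and error bars exact 95% intervals for counting error; the 0 µM-only genes stand at 64.7% and 65.1%, close to genes marked at both doses and above the 44.7% and 46.7% of genes without H3K27ac.

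Among the highest-scoring ends with a different H3K4me1 listing, BICRA, a subunit of the BRD9-containing chromatin remodelling complex, had a score of 39.1 and 1 H3K4me1 summit within 2 kb at 0 µM and none at 15 µM. MTTP, which loads lipid onto apolipoprotein B, and its neighbour TRMT10A, a tRNA methyltransferase gene, shared an H3K27ac summit of score 31.4 and had 2 H3K4me1 summits at 0 µM and none at 15 µM. ZNF687 and TMEM9 had the same pattern, with 1 and 2 H3K4me1 summits at 0 µM. In the opposite direction, G3BP1, a core protein of stress granules with an H3K27ac score of 32.9, had no H3K4me1 summit within 2 kb at 0 µM and 2 at 15 µM. ZNF397 and RBBP5, a subunit of the H3K4 methyltransferase complexes, had none at 0 µM and 3 and 4 at 15 µM. The histone gene H4C13 and TMEM123 each had none and 3. Within 2 kb of these 5 ends H3K27ac was listed at 0 µM alone and H3K4me1 at 15 µM alone. For H4C13 the nearest 0 µM H3K4me1 summit lay 2594 bp from an end. H3C11, on the same H3K27ac summit, had 1 H3K4me1 summit within 2 kb at 0 µM.

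The promoters of the 0 µM-only genes were rich in GC and CpG. In windows of 250 bases before to 50 after the start, median GC content was 65.3% in 0 µM-only genes, 63.7% in genes marked at both doses, 61.3% in genes with no H3K27ac and 62.7% over all 15812 promoters. The median ratio of observed to expected CpG was 0.866, 0.849, 0.665 and 0.763. In all 14 short motifs were searched on both strands, and matches could overlap one another. The GC box GGGCGG, bound by SP and KLF factors, was in 71.6% of 0 µM-only promoters (69.6 to 73.6%), 67.4% of those marked at both doses (65.6 to 69.2%) and 58.5% of all. The ETS site CCGGAAGT was in 12.3% (10.9 to 13.7%), 9.81% (8.72 to 11%) and 6.20%. The cyclic AMP response element TGACGTCA was in 4.21% (3.39 to 5.17%), 3.01% (2.40 to 3.73%) and 2.59%. The share of promoters with each of these 3 motifs was higher in 0 µM-only genes than in genes marked at both doses. The intervals of the classes were apart for GGGCGG and overlapped for CCGGAAGT and TGACGTCA.

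The TATA box and the nuclear receptor site had lower shares in 0 µM-only promoters. TATAAA was in 5.62% of 0 µM-only promoters (4.66 to 6.70%), 7.47% of those marked at both doses (6.51 to 8.53%) and 9.64% of all. AGGTCA, a site of nuclear receptors, was in 8.04% (6.90 to 9.30%), 10.1% (9.03 to 11.4%) and 11.7%. For both motifs the intervals of the classes overlapped slightly. The other 9 motifs differed by at most 1.20 percentage points between the classes, with intervals that overlapped. CCACCC was in 37.0% and 35.8%, CCAAT in 37.0% and 38.0%, the AP-1 site TGANTCA in 3.54% and 4.42%, the HNF1 site GTTAAT in 3.92% and 4.57%, and TGATGNAA, the letters of the ATF4 composite site, in 1.40% and 1.82%. The NRF1 core GCGCATGCG was in 4.50% and 3.90%, the E-box CACGTG in 10.1% and 10.0%, the YY1 core AAGATGGCG in 4.99% and 4.94%, and the heat shock core GAANNTTC in 4.79% and 5.09%. Over all promoters these 9 were in 37.1%, 36.3%, 5.76%, 5.26%, 2.54%, 2.76%, 8.87%, 2.74% and 5.57%. Scores differed between the classes, so the shares were also read within score. Above the median score, GGGCGG was in 68.7% and 65.9%, CCGGAAGT in 13.3% and 9.67%, TATAAA in 5.57% and 8.04% and AGGTCA in 8.98% and 9.89%, and below it in 72.9% and 70.3%, 11.8% and 10.1%, 5.64% and 6.37%, and 7.61% and 10.6%. For these 4 motifs the direction of the difference was the same on both sides of the median score, as it was for TGACGTCA, at 4.80% and 3.15% above it and 3.95% and 2.74% below. It was not for 3 others: GTTAAT was in 3.10% and 4.72% above and 4.30% and 4.28% below, GCGCATGCG in 4.02% and 4.38% above and 4.72% and 2.96% below, and AAGATGGCG in 4.64% and 5.56% above and 5.14% and 3.73% below.

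The genes were next grouped by function, in 32 lists that were written with earlier results of these data known. For each list described below the share of 0 µM-only genes among its members with a 0 µM end summit is given beside the 43.9% over all such genes. It is also given beside the same-score share, which is the share over all genes weighted to the score classes of the list. Counts in lists are descriptions of the contrast that chose the genes.

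Genes of protein synthesis were found in both classes. Of the cytosolic ribosomal protein genes, 33 of 67 with an end summit were 0 µM-only (49.3%, 36.8 to 61.8%), beside a same-score share of 41.5%. RPL19 had the highest score of them, 35.98, with the nearest 15 µM summit 246 kb away, and its ends had 5 H3K4me1 summits in the 0 µM library but 1 in the 15 µM library, counted within 2 kb. RPS14 scored 28.6 and RPS27L, a paralog of a ribosomal protein, 25.5. RPL41 and RPL4 stayed listed at 15 µM with 0 µM scores of 61.3 and 49.9. For mitochondrial ribosomal proteins the count was 23 of 43 (53.5%, same-score 48.7%), led by MRPS10 and MRPS5 at a tied score of 21.2 and MRPL27 at 18.1. The MRPS10 summit lay 73 bp from the finish of the gene, and a 15 µM summit lay 2.18 kb from an end. MRPL54 and MRPS18B were marked at both doses. Of the genes in the list of translation factors, 17 of 40 were 0 µM-only (42.5%, same-score 36.9%). They included EIF4B, a cofactor of the RNA helicase of initiation, at 31.0, EIF4G2, which drives cap-independent initiation, at 21.2, and EEF1AKMT3, a methyltransferase of elongation factor 1 alpha, at 23.1. EIF2S3 and EEF1A1 were marked at both doses. Among tRNA synthetases 9 of 26 were 0 µM-only (34.6%, same-score 41.9%), with MARS1 at 25.5, YARS2 at 21.7 and RARS1 at 17.1.

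Genes of the respiratory chain and ATP synthase came to 23 of 43 (53.5%, 37.7 to 68.8%), beside a same-score share of 43.3%. UQCRB and UQCRC2, subunits of complex III, scored 34.4 and 29.9, and ATP5MC1, a gene for the c subunit of ATP synthase, 26.1. COX20, an assembly factor of cytochrome oxidase, was marked at both doses at 104.5 and NDUFV2 of complex I at 45.9.

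Among genes of RNA polymerase II, Mediator and elongation, 23 of 60 were 0 µM-only (38.3%, same-score 40.9%). Beside NELFA and CTR9 they included MED11, a Mediator head subunit, at 21.2. GTF2E1 and TAF9, subunits of general factors, were marked at both doses at 45.5 and 39.1. Splicing genes gave 21 of 61 (34.4%, same-score 38.4%), with SRSF1, an SR protein, at 30.4 and SNRPB, a core snRNP protein, at 24.5. LSM14A of the same name family, a P-body protein, scored 22.8. HNRNPUL2 and HNRNPA0 were marked at both doses. Chromatin enzymes and readers gave 24 of 53 (45.3%, same-score 42.9%), led by KDM2A and by DOT1L, the H3K79 methyltransferase, at 22.3, while the remodellers CHD2 and CHD8 were marked at both doses.

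For the C2H2 zinc finger genes named ZNF the count was 80 of 140 (57.1%, 48.5 to 65.5%), beside 43.9% over all genes and a same-score share of 46.5%. Many proteins of this family repress genes and transposable elements through a KRAB domain. With the number of summits matched as well as the score, the share over all genes was 51.0%, which lies within the interval. On chromosome 19, where many of these genes stand in clusters, 25 of 43 were 0 µM-only (58.1%), and elsewhere 55 of 97 (56.7%). Other genes of chromosome 19 came to 51.0% (154 of 302) and all other genes elsewhere to 43.2%. ZNF789, ZNF140 and ZNF397 had the highest scores in the class, at 43.9, 42.3 and 31.5. ZNF367 and ZNF518A, at 77.0 and 60.7, were marked at both doses.

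Genes of the liver cell that had a 0 µM end summit were mostly marked at both doses. Of the 62 hepatocyte genes, 25 had no H3K27ac at either dose. Of 26 with an end summit 2 were 0 µM-only (7.69%, 0.946 to 25.1%), against a same-score share of 25.3% and 22.7% with the number of summits matched. FGG, the fibrinogen gamma chain, and ALB scored 98.6 and 60.6 and had 3 and 4 H3K27ac summits within 2 kb at 15 µM. Of liver transcription factors 6 of 30 were 0 µM-only (20.0%, 7.71 to 38.6%, same-score 28.8%), with ATF5 at 34.4, HNF4G at 18.3 and TBX3 at 13.3. NFE2L2 and NR5A2 were marked at both doses. Sterol and fatty acid genes gave 7 of 30 (23.3%, 9.93 to 42.3%, same-score 31.7%), with ELOVL1, a fatty acid elongase, at 25.5, MVK, mevalonate kinase, at 18.2 and ACLY, ATP citrate lyase, at 16.9. HMGCS1 and FDPS of the mevalonate pathway were marked at both doses at 67.2 and 49.2. With the number of summits matched too, the shares beside these last 2 lists were 24.4% and 29.3%, and each of the 3 intervals takes in its share so matched. Median scores of the 3 lists were 24.4, 23.9 and 21.6, above the 14.4 over all genes with an end summit.

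The ATF4 and amino acid response list gave 12 of 21 (57.1%, 34.02 to 78.2%). That range takes in the 43.9% over all genes and the same-score share of 37.1%. It lies above the 31.0% found with the number of summits matched too. No other of the 32 lists had an interval apart from its share so matched. No allowance was made for reading 32 lists. ATF5, a transcription factor induced by ATF4, scored 34.4 with no 15 µM H3K27ac summit within 51.1 kb. Its 0 µM summit lay 721 bp inside the gene and was shared with IL4I1 and NUP62. TRIB3, a pseudokinase induced by the same factor, had 3 summits within 2 kb and a best score of 26.4. SHMT2, the mitochondrial serine hydroxymethyltransferase, scored 21.2. All 12 had an H3K4me1 summit within 1 kb at 15 µM and 10 had one at 0 µM, beside 65.1% and 64.7% of all 0 µM-only genes. SLC7A11, the cystine transporter, and SLC38A2, a glutamine transporter, were marked at both doses with 0 µM scores of 57.2 and 52.0.

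Of the genes closest to choline itself, 6 of 20 in the list of choline uptake and phosphatidylcholine synthesis, remodelling and breakdown were 0 µM-only (30.0%, 11.9 to 54.3%, same-score 39.8%). LPCAT4, a lysophospholipid acyltransferase, had a score of 18.5 and its nearest 15 µM summit at 134 kb. PEMT, which makes phosphatidylcholine by methylating phosphatidylethanolamine, had a score of 15.6, and a 15 µM summit lay inside the gene, 27.2 kb from an end. GPCPD1, a glycerophosphocholine phosphodiesterase, had a score of 15.5 with 3 H3K4me1 summits within 2 kb at 0 µM and none at 15 µM. Its nearest 15 µM H3K4me1 summit lay 2431 bp from an end. CHKA, the choline kinase, and PLD1, a phospholipase D, were marked at both doses. In the betaine, methionine and folate cycles 10 of 18 were 0 µM-only (55.6%, 30.8 to 78.5%, same-score 47.2%). AHCYL2, a relative of the enzyme that cleaves S-adenosylhomocysteine, had a score of 32.0 and its nearest 15 µM summit at 123 kb. SARDH, sarcosine dehydrogenase, and MAT2A, which makes S-adenosylmethionine, were marked at both doses at 22.1 and 21.8. The intervals of both lists take in the share over all genes.

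Immediate early genes and MAP kinase phosphatases gave 12 of 28 (42.9%, same-score 45.3%), among them DUSP1 and, at 20.98, CCN2, a matrix-associated growth regulator, while DUSP6 and JUND were marked at both doses at 65.4 and 53.4. In the YAP, TEAD and Hippo list 10 of 18 were 0 µM-only (55.6%, same-score 58.5%). Of 8 KLF and SP factor genes with an end summit 1 was 0 µM-only (12.5%, 0.316 to 52.7%, same-score 37.6%), KLF9 at 17.1, and SP3 and SP8 were among those marked at both doses. Of chaperones 12 of 27 were 0 µM-only (44.4%, same-score 40.0%), with HSPH1 at 25.5, CCT8, a chaperonin subunit, at 18.2 and AHSA1, a cochaperone of HSP90, at 17.1. Proteasome genes gave 10 of 25 (40.0%, same-score 42.9%), led by PSMA5 at 18.8 and PSMC5 at 17.1. DNA replication and mitosis gave 16 of 41 (39.0%, same-score 43.6%), led by MCM3, a helicase subunit, at 28.2 and LIG1, the replicative ligase, at 23.1, and DNA repair 14 of 35 (40.0%, same-score 46.9%), with FANCA at 24.03 and ATR at 16.1. Replication-dependent histones gave 17 of 50 (34%, same-score 36.4%). H3C11 and H4C13 shared a summit of score 25.6, so neighbours in this cluster are not separate observations.

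Lists of vesicle transport, N-glycosylation and the cytoskeleton had shares within 2 percentage points of that over all genes. Vesicle and Golgi transport gave 24 of 55 (43.6%, same-score 41.7%), with NAPA, an adaptor for SNARE disassembly, at 31.8 and COPG1, a coat protein, at 21.8. The best NAPA summit lay 443 bp from the finish of the gene. N-glycosylation gave 9 of 21 (42.9%, same-score 38.6%), with ALG8 at 19.2 and ALG11 at 17.7 after ALG2. Actin and tubulin genes gave 11 of 26 (42.3%, same-score 42.0%), with ACTB, cytoplasmic beta actin, at 21.9 after TUBA1B and its nearest 15 µM summit 2.74 kb from an end. Autophagy and lysosome genes gave 9 of 29 (31.0%, same-score 41.4%), led by ATP6V1E1, a proton pump subunit, at 25.9, and NF-kB and STAT genes 9 of 19 (47.4%, same-score 48.9%), led by STAT5A at 13.2 and RELB at 12.1. Glycolysis and hypoxia genes gave 5 of 18 (27.8%, 9.69 to 53.5%, same-score 45.4%). With the number of summits matched too the share was 37.9%, and the interval takes in both. VEGFA, the angiogenic growth factor, scored 21.2, with 3 H3K4me1 summits within 2 kb at 0 µM and none at 15 µM. The nearest 15 µM H3K4me1 summit to an end of VEGFA lay 2104 bp away, just past that limit.

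**Figure D5:**
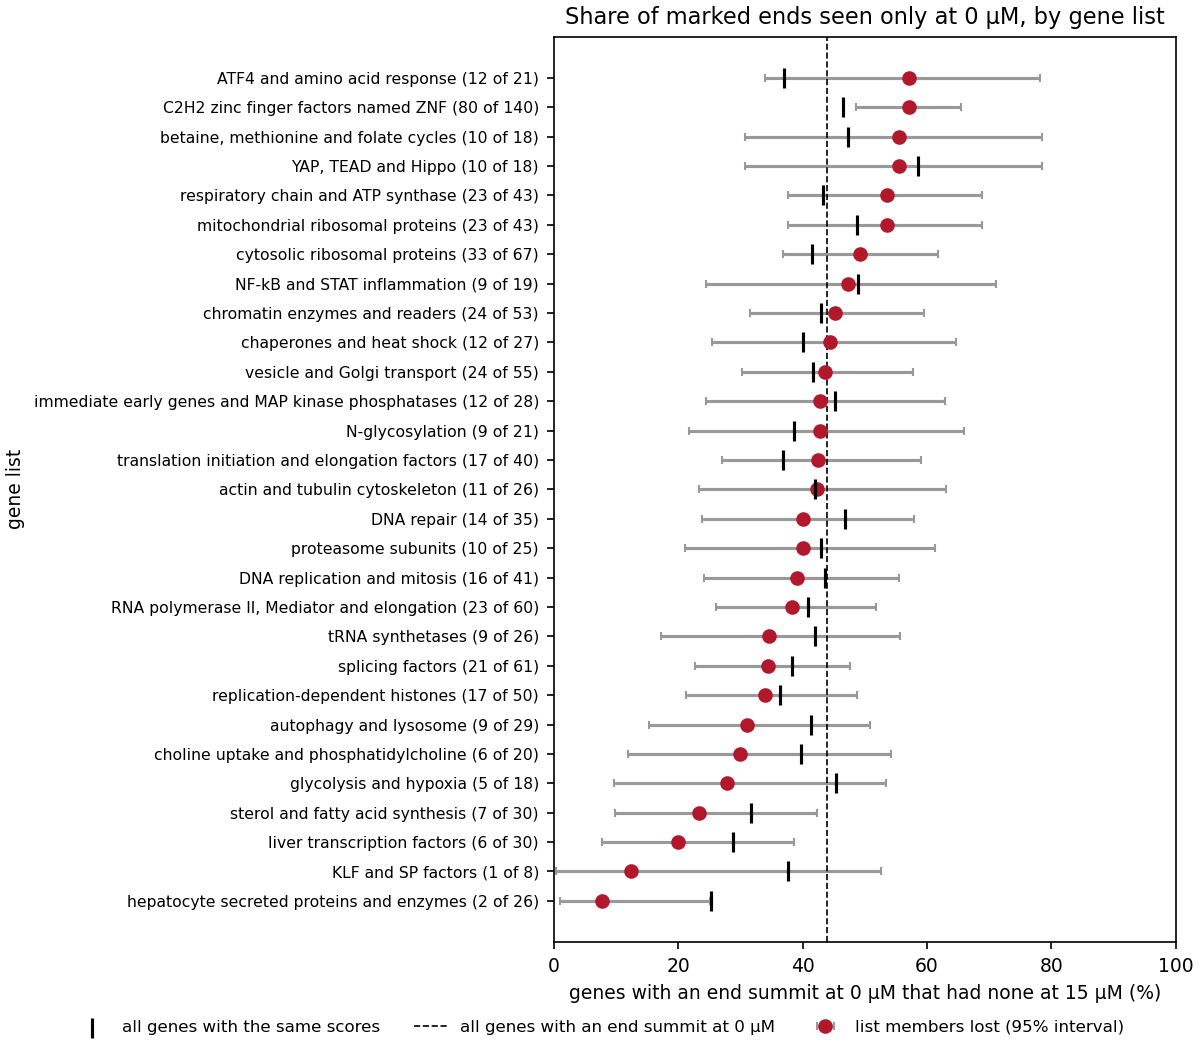
Share of genes with a 0 µM H3K27ac end summit that were 0 µM-only (x axis, percent) in each gene list with 8 or more such genes (y axis, counts in brackets). Red points are shares with exact 95% intervals, black ticks the share over all genes with the same scores, and the dashed line the 43.9% over all; the interval of the ZNF list lies above the dashed line, and those of the sterol, liver transcription factor and hepatocyte lists lie below it.

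The 1 kb and 2 kb limits of the rule cut through a continuous range. FAM47E and DRC2, with 0 µM summits 1000 and 995 bp from an end, were the members nearest inside the first limit, and SECTM1 and NAMPT, at 1002 and 1003 bp, stood just outside. At the second limit ZC3H7A and CEP41 were members with a 15 µM summit 2007 and 2008 bp from an end. TMBIM6 and ADAM9, with one at 1995 and 1992 bp, counted as marked at both doses.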

How the data were processed

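Of the 12 samples of the series, the 4 H3K27ac and H3K4me1 ChIP-seq libraries were used. The other 8, namely 4 input, 3 RNA-seq and 1 CUT&Tag sample, were not analysed here. The authors deposited 1 summit list per library, whose score column follows the MACS2 layout and was taken to hold p or q values on the −log10 scale. The sources used here do not say which. The submitters' processing notes name the build hg38 and, with no version, MACS2, Bowtie, deepTools and Picard. The lowest deposited scores were 5.01 in both H3K27ac lists and 1.31 and 1.30 in the H3K4me1 lists at 0 and 15 µM. Scores were used only to rank or filter summits within a list.

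Summits on 23 chromosomes were set against gene positions in a RefSeq table of GRCh38.p14, which gives no strand or exons, so intron, exon and UTR positions are not given. Strand, starts and promoter sequence came from a RefSeq promoter table that matched 15812 of 19974 protein-coding genes and 2065 of the 2482. Summits at the start or finish, and head-to-head starts, were read at the gene's ends. Distances and profiles from the start were read from the promoter table's start. Percentiles, counts and exact 95% intervals were computed in Python 3.11.15 with numpy 2.4.6, pandas 2.3.3 and scipy 1.17.1, and figures with matplotlib 3.10.9. No test between doses was made, since each mark and dose held 1 library. Calls were checked with summits planted into the deposited lists, and the motif search with a planted motif. All were recovered, and nearest distances equalled those of a direct search.

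The members and the gene lists were chosen with earlier results of these data known. Named genes were the 12 highest-scoring 0 µM-only ends, 1 gene per summit, up to 3 0 µM-only and 2 other marked genes per list by score, up to 5 ends with H3K4me1 at 1 dose, 5 far from 15 µM summits among ends above the median score, 3 with most summits, and 2 genes on each side of each limit. A few genes this rule takes are not reported here. Promoters printed were those of the first named genes whose summit lay within 150 bp of the window, leaving out windows that overlap an annotated gene. Alternatives were other distances, a higher score, lists of equal length, starts only and 1 gene per summit group.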

Additional observations from a re-analysis of the deposited data

How the results depend on the processing

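The count of 2482 stayed within 1.5 times of itself under every alternative run. It was 1905 with the 0 µM summit within 500 bp of an end and 2900 within 2 kb, 2952, 2183 and 1936 with no 15 µM summit within 1, 5 and 10 kb, 2317 with scores of 10 or more, 2032 with lists of equal length, 2020 with starts only and 2089 with 1 gene per summit group. The share of genes with a 0 µM end summit, 43.9% in the main run, left its interval in some of these. It was 52.3%, 38.7% and 34.3% with no 15 µM summit within 1, 5 and 10 kb. With scores of 10 or more it was 54.9%, and with lists of equal length 40.7%. In the other alternatives it was between 43.8% and 45.2%. The share with H3K4me1 within 1 kb depended on distance and score by construction. At 0 µM it was 29.9% within 500 bp, 93.5% within 2 kb, 47.8% with H3K4me1 scores of 3 or more and 62.6% among genes with no 15 µM H3K27ac summit within 10 kb. At 15 µM the first 3 of these were 30.4%, 95.2% and 43.2%. Genes marked at both doses went from 50.5% to 44.4% between the doses at scores of 3 or more, so that difference was not particular to the 0 µM-only genes. With no 15 µM summit within 10 kb and with lists of equal length, the median score percentile (51.9 and 59.5), the share at the start (94.7% and 94.8%, beside 94.0%) and median GC (65.3% in both) stayed within their quartiles or interval. Each of the 14 motif shares did so too, also with 1 gene per summit, and for the GC box, the ETS site, the cyclic AMP response element, the TATA box and the nuclear receptor site the difference between the classes kept its direction in these 3 alternatives. The 2 smallest differences did not: that for the E-box turned in 2 of them and that for the YY1 core in 2. The share of 0 µM-only genes in score class 1 and 10 was 55.4% and 5.31% with no 15 µM summit within 10 kb, and 66.9% and 6.41% with lists of equal length; these 2 alternatives were added after seeing the data. With no 15 µM summit within 10 kb, 4 of 32 list shares left their intervals: histones 16%, N-glycosylation 19.05%, glycolysis and hypoxia 5.56% and KLF and SP factors 0%. With lists of equal length none of the 31 that gave a value did. No paired analysis was possible because each mark and dose held 1 library. Read depth is unknown, and the H3K27ac lists differ in length, so a summit under the authors' threshold at 15 µM cannot be told apart from one that is absent.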

Other observations

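The 0 µM-only ends above the median score that lay farthest from any 15 µM H3K27ac summit were on chromosomes X and 12. MORF4L2, a gene for a subunit of histone acetyltransferase complexes, lay 3005 kb away and had 2 H3K27ac summits within 2 kb at 0 µM, with no H3K4me1 summit there at either dose. UBQLN2, a ubiquilin that carries ubiquitinated proteins to the proteasome, lay 1924 kb away and had 4 H3K4me1 summits at 0 µM and 6 at 15 µM. ZNF10 and ZNF891, which share a summit, and ZNF140 lay 1269, 1243 and 1218 kb away on the same arm of chromosome 12. Among the ends with most 0 µM summits within 2 kb and none at 15 µM were those of NSD3, an H3K36 methyltransferase, with 5, and PKN2, a protein kinase, with 4.

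The share of marked genes that were 0 µM-only varied between chromosomes, read here with no test. It was 59.3% on chromosome X (64 of 108, 49.4 to 68.6%), 58.9% on chromosome 8 (93 of 158, 50.8 to 66.6%) and 56.9% on chromosome 16 (50.02 to 63.6%). Chromosome 22 had 55.0% (66 of 120, 45.7 to 64.1%), chromosome 21 52.3% (23 of 44, 36.7 to 67.5%) and chromosome 19 51.9% (46.5 to 57.3%). Their same-score shares, in that order, were 49.4%, 47.8%, 48.2%, 46.4%, 41.7% and 41.9%. The lowest shares were 32.3% on chromosome 15 (54 of 167, 25.3 to 40.0%), 37.5% on chromosome 12 (32.5 to 42.7%) and 38.0% on chromosome 2 (33.4 to 42.8%). Beside them stood same-score shares of 41.9%, 42.0% and 42.9%. Neighbouring genes can share a summit, so these intervals are somewhat too narrow.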
